A study of Mus musculus with 9 samples.

Results

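The kinetochore and centromere genes examined here are 38 genes, named in a list, that encode the protein assembly joining each chromosome to the spindle. All 38 were found among the 12339 genes of the deposited value table, and all 38 passed the filter on low reads. RNA was sequenced from KP-GFP cells, mouse lung tumour cells of the C57BL/6 strain that carry GFP, after 7 days as spheroids. Each spheroid was seeded with 2500 tumour cells alone, with 5000 lung tissue-resident macrophages (TRMs, here alveolar macrophages) or with 5000 bone-marrow monocytes. In every group 32 spheroids were pooled, dissociated for 20 min at 37 °C and sorted for GFP, and each group has 3 libraries. The sources used here name no promoter for GFP and do not say whether KP-GFP is 1 clone. Whether the replicates came from independent cultures is also not stated, and a p-value below therefore reflects the scatter of these libraries, possibly technical alone.

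A kinetochore is built in layers. Nucleosomes that hold the histone variant CENP-A mark the centromere, and the constitutive centromere-associated network (CCAN) binds them through the cell cycle. In mitosis the MIS12 complex links this inner layer to the NDC80 complex, which grips microtubules, and the SKA complex strengthens that grip. The chromosomal passenger complex corrects faulty attachments, and the corona, with the ROD-ZW10-Zwilch (RZZ) complex, carries motors and checkpoint signals. Many of these genes are transcribed mainly in the G2 and M phases of the cell cycle. They are known targets of B-MYB, FOXM1 and the DREAM complex, acting in many cases through the cell-cycle homology region (CHR). Many of their promoters also hold CCAAT boxes, which are bound by another factor, NF-Y.

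Levels are given in scaled CPM, counts per 1e6 reads after the authors' scaling of library size. Members are said to rise or fall where limma gave an adjusted p under 0.05 (Benjamini-Hochberg, over all 12326 tested genes). With TRMs, 14 of 38 members rose and 0 fell, where 10.2% of all genes rose and 8.15% fell. With monocytes, 25 of 38 rose and 0 fell, where 14.7% of all genes rose and 12.7% fell. These comparisons share the 3 libraries of tumour cells alone. The median log2 difference over the 38 members was 0.52 with TRMs and 1.16 with monocytes, beside medians over all genes of -0.00 and -0.02. Of the members that rose, 9 did so by 2-fold or more with TRMs. With monocytes 21 rose by 2-fold or more, and 7 by 4-fold or more. In the authors' deposited table, at their false discovery rate under 0.05, 11 members were higher with TRMs and 22 with monocytes, with 12.0% and 14.4% of that table's genes higher. Members called here and not there were Cenpm, Ska3 and Spc24 with TRMs, and Cenph, Cenpu and Oip5 with monocytes.

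**Figure D1:**
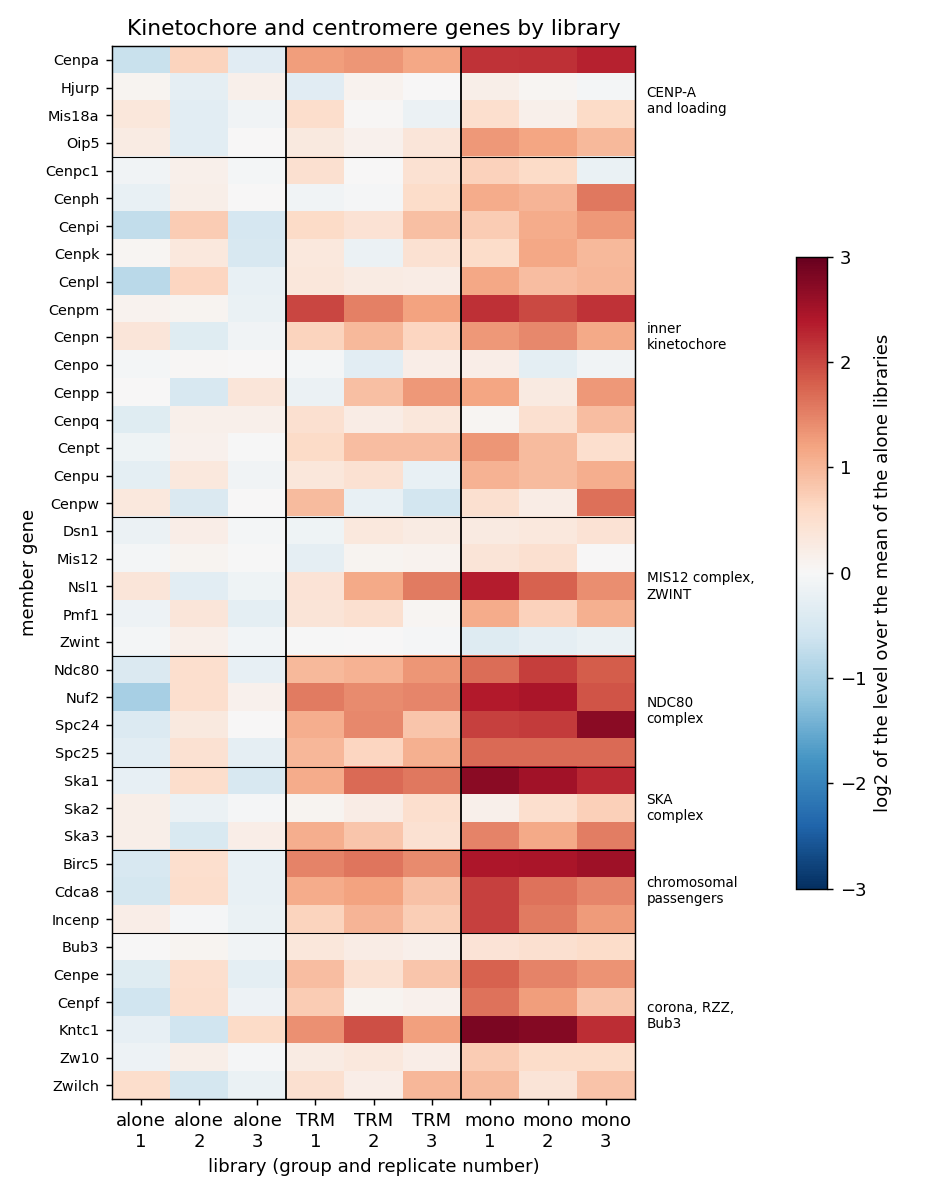
Colour shows the log2 ratio of each member's level to its mean over the 3 libraries alone, for 38 members (rows, grouped by role) in 9 libraries (columns). The chromosomal passenger and NDC80 rows are red in all 6 co-culture libraries, deepest with monocytes, while Hjurp, Zwint and Cenpo stay pale.

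Libraries held 16001895 to 32771448 recovered reads. On the second principal component of all genes, with 20.9% of the variance, monocyte replicate 3 stood apart at -75.85, and the others lay between -32.87 and 50.25. Without it 16 members rose with TRMs and 25 with monocytes, and 1 differed between the co-cultures. Among the libraries of tumour cells alone (the alone group), replicate 2 had the highest level for 25 of 38 members and replicate 1 the lowest for 20. The epithelial identity of the sorted cells was checked against 8 analysed markers of 9 listed, as Nkx2-1 was not in the value table. These markers do not by themselves tell tumour cells from other epithelium. Krt8, a simple-epithelium keratin, was at 4929, 4119 and 4901 in the libraries alone, 5340, 4797 and 4312 in those with TRMs and 3386, 3908 and 4868 in those with monocytes. Cdh1, which encodes E-cadherin, fell with monocytes (log2 difference -0.96 ± 0.18 SE, adjusted p = 0.00173), as did the claudins Cldn4 and Cldn7, and the log2 differences of all 8 markers were negative there. With TRMs 4 of the 8 were negative and Cldn4 fell (log2 difference -0.72 ± 0.23 SE, adjusted p = 0.0477). That call was lost in edgeR (0.0705) and on leaving out any of 5 libraries (alone 1 and 3, TRM 2 and 3, monocyte 2, adjusted p = 0.0619 to 0.188). Cldn7 passed as lower with TRMs in a fit of the 2 groups only (0.0158) and without monocyte replicate 3 (0.0143). Without that library Epcam (0.00825) and Krt7 (0.00972) passed as lower with monocytes. Epcam also did so in DESeq2 (0.049) and under a replicate block (0.0305). All 8 epithelial markers were higher with TRMs than with monocytes, of which 0 passed in limma, 4 had an unadjusted p under 0.05 and DESeq2 called 2. Without monocyte replicate 3, limma called 5 of them between the co-cultures. Of 20 leukocyte and macrophage markers 12 were analysed, and their summed level was 288.5 to 343.9 alone, 301 to 420.1 with TRMs and 295.5 to 371.4 with monocytes. Most of that sum came from Cd14 and Pparg. Ptprc, the gene of the pan-leukocyte surface protein CD45, was 4.5 or lower in every library. It fell with monocytes, to 0.135, 0.565 and 0.0210 (log2 difference -3.82 ± 1.25 SE, adjusted p = 0.0361). Siglecf, which encodes a surface lectin of alveolar macrophages, fell from 1.05, 1.47 and 1.79 alone to 0.0270, 0.189 and 0.147 with monocytes (log2 difference -3.95 ± 1.33 SE, adjusted p = 0.0413). Chil3, which encodes a chitinase-like protein of macrophages, fell from 3.06, 12.7 and 14.6 alone to 0.784, 0.314 and 1.20 with monocytes (log2 difference -3.63 ± 0.85 SE, adjusted p = 0.006595). The monocyte values of Ptprc and Siglecf are near the floor, where 1 read was 0.0541, 0.0419 and 0.0421 scaled CPM in monocyte replicates 1, 2 and 3. The call of Ptprc was lost without any of 6 libraries (each alone, TRM replicate 3, and monocyte replicates 1 and 3, adjusted p = 0.0521 to 0.138), and that of Siglecf without any of 5 (each alone, TRM replicate 2 and monocyte replicate 1, 0.0535 to 0.164). That of Ptprc was also lost in edgeR (0.0778), in limma-voom (0.106), on log2(value + 1) (0.0785) and in a fit of the 2 groups only (0.0675). Chil3 was not called in limma-voom (0.0728). Csf1r was at 2.25, 3.78 and 3.02 alone and 6.73, 5.33 and 5.68 with TRMs (limma adjusted p = 0.0613). It passed with TRMs in DESeq2 (0.0446), on log2(value + 1) (0.0424), in a fit of the 2 groups only (0.0474) and without alone-group replicate 2 (0.0479). Lyz2 passed with TRMs without TRM replicate 2 (0.0485). Pparg passed with monocytes under a replicate block (0.0298) and without alone-group replicate 2 (0.0242). In the main limma fit, the only leukocyte or macrophage marker called higher was Mrc1, a macrophage mannose receptor, which rose in both co-cultures, from 5.125 ± 0.211 alone (SD, n = 3) to 32.9 ± 9.27 with TRMs and 39.2 ± 7.49 with monocytes. Of the 4 analysed monocyte markers, F13a1 rose in both, from 0.960 ± 0.303 to 13.35 ± 3.82 and 13.4 ± 5.38, and Plac8 fell with monocytes (log2 difference -1.22 ± 0.35 SE, adjusted p = 0.0212). That Plac8 call was lost without alone-group replicate 1 or 3 or monocyte replicate 1 or 2 (0.052 to 0.0905), and in edgeR (0.0629). Plac8 stood at -0.78 with TRMs (log2 difference), Ccr2 at -1.42 with TRMs and -0.59 with monocytes, and Spi1 at -0.10 and 0.31, none past the threshold in the main fit. With TRMs, Plac8 passed in a fit of the 2 groups only (0.0148) and without monocyte replicate 3 (0.013). Of 10 early genes linked to dissociation, Jun and Atf3 fell and Hspa1a rose with TRMs, and 4 (Fos, Fosb, Jun and Atf3) fell with monocytes. With monocytes 9 of the 10 were negative, and DESeq2 also called Junb (0.0296) and Ier2 (0.0192). All 10 stood higher with TRMs than with monocytes, 5 at an unadjusted p under 0.05. Of these 0 passed in limma, and DESeq2 called Hspa1a (0.0392) and Hspa1b (0.00659). Without alone-group replicate 1 or 3, Jun was not called with TRMs (0.0577 and 0.0559) nor Fos with monocytes (0.0747 and 0.0632), nor were they without TRM replicate 2 (Jun, 0.0561) and monocyte replicate 2 (Fos, 0.0767). Mitochondrial transcripts took 0.523% to 0.667% of reads alone, 0.316% to 0.622% with TRMs and 0.288% to 0.580% with monocytes. The part of these markers, early genes and mitochondrial reads in the results on kinetochore genes was not tested.

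The promoters of 33 members were found in the RefSeq table of GRCm38.p6, each from 250 bases before to 50 bases after a start. A CCAAT box (CCAAT on either strand) lay in 23 of the 33 (69.7%), and a CHR (TTTGAA or TTCGAA on either strand) lay in 17 (51.5%). Both motifs were found in 13 members (39.4%), against 6.81% of the tested genes and 8.61% of all genes with a promoter of that length. Over all those genes 41.1% held a CCAAT box and 21.7% a CHR, and over the 9765 tested genes the shares were 43% and 16.3%. The motif letters can overlap, as they do in Kntc1 and Cdca8. A match is a description of the letters, not a bound site. The 6 sequences shown first are those members with both motifs that had the smallest p against tumour cells alone, with the motifs in capitals, 5′ to 3′ along the gene's strand.
Cenpa, chr5:30666769-30666915, forward strand: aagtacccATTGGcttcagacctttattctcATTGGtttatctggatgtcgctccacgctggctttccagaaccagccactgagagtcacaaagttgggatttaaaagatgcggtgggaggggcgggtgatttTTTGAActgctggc
Kntc1, chr5:123749516-123749731, forward strand: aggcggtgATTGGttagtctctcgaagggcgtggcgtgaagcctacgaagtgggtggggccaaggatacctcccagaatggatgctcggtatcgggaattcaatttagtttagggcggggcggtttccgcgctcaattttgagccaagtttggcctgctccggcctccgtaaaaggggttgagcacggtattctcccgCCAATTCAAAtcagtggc
Spc25, chr2:69206184-69206276, reverse strand: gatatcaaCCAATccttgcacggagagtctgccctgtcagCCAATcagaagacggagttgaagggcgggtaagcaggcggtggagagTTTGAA
Cdca8, chr4:124936888-124937010, reverse strand: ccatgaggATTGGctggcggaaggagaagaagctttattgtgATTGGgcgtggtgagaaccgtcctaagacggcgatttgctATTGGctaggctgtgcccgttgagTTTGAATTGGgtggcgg
Cenpm, chr15:82244406-82244516, reverse strand: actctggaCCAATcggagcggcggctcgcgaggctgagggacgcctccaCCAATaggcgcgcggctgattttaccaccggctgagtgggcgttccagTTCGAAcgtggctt
Cenpn, chr8:116921714-116921744, forward strand: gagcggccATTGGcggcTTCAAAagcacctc
The next 2, for contrast, are from members that held neither motif in the whole window and whose levels rose in both co-cultures.
Birc5, chr11:117849157-117849266, forward strand: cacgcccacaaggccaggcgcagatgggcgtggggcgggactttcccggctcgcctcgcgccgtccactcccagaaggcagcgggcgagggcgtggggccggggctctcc
Nuf2, chr1:169531435-169531544, reverse strand: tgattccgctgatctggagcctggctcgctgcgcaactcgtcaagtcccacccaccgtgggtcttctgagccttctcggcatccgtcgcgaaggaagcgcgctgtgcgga
Of the 21 members with a promoter that were called with monocytes, 11 held both motifs, and of the 12 that were not called, 2 did. Hjurp held both motifs and passed no test. These counts are a description, with no test.

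Genes of the centromeric nucleosome moved unequally: the CENP-A gene rose strongly in both co-cultures, and the gene of its loading chaperone passed no test. Of 4 genes in this group, 1 was called with TRMs and 2 with monocytes. Cenpa encodes the histone variant that marks the centromere. Its level was 17.3, 43.7 and 21.7 in the libraries alone, 65.85, 69.1 and 61.8 in the TRM co-cultures and 124, 126.5 and 135.5 in the monocyte co-cultures. The 3 groups did not overlap, and alone-group replicate 2 stood at more than 2-fold the level of replicate 1. Cenpa was 2.58-fold higher with TRMs (log2 difference 1.37 ± 0.26 SE, adjusted p = 0.00245) and 5.06-fold higher with monocytes (log2 difference 2.34 ± 0.26 SE, adjusted p = 4.25e-05). In bulk samples such as these, more cells that express a gene and more RNA per cell cannot be told apart.

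Hjurp encodes the chaperone that deposits CENP-A. Its level was 254, 198 and 268 in the libraries alone, 191, 256 and 242 in those with TRMs and 271, 250.0 and 229 in those with monocytes. The 3 groups overlapped throughout, and the 95% interval of the log2 difference was -0.40 to 0.27 with TRMs and -0.27 to 0.40 with monocytes. Oip5 encodes Mis18β, a subunit of the complex that licenses CENP-A loading. It had 4.04, 2.74 and 3.41 in the libraries alone, 4.16, 3.68 and 4.38 in those with TRMs and 8.35, 7.685 and 6.63 in those with monocytes. All monocyte libraries lay above all others, at 2.24-fold the level alone (log2 difference 1.17 ± 0.31 SE, adjusted p = 0.0133), while the TRM libraries overlapped those alone (0.28, adjusted p = 0.596). Oip5 shares 172 exon bases with Nusap1 on the opposite strand, and Nusap1 itself rose both with monocytes (log2 difference 1.71 ± 0.23 SE, adjusted p = 0.000161) and with TRMs (log2 difference 1.02 ± 0.23 SE, adjusted p = 0.00699). Without stranded reads these partners cannot be told apart in that stretch. Mis18a, which encodes another subunit of that complex, was not called (log2 difference 0.16 with TRMs and 0.44 with monocytes).

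Of the 13 members of the inner kinetochore (CCAN), 2 rose with TRMs (15.4%) and 7 with monocytes (53.85%). Over all genes 10.2% and 14.7% rose. The log2 difference was positive for 12 of the 13 in each comparison, so passing or not does not by itself divide the group. Cenpm, a CCAN subunit that pairs with CENP-I, had the largest log2 differences of the group. Its level was 1.94, 1.925 and 1.58 in the libraries alone, 7.29, 5.16 and 4.21 in the TRM co-cultures and 8.24, 7.14 and 8.14 in the monocyte co-cultures. Every co-culture library lay above every library alone, and the 2 co-cultures overlapped. Cenpm was 3.00-fold higher with TRMs (log2 difference 1.58 ± 0.33 SE, adjusted p = 0.00520) and 4.33-fold higher with monocytes (log2 difference 2.12 ± 0.33 SE, adjusted p = 0.000528). Cenpt encodes a CCAN subunit that also recruits the NDC80 complex. It had 22.4, 27.1 and 24.5 in the libraries alone, 36.8, 46.9 and 46.8 in those with TRMs and 61.3, 47.5 and 35.1 in those with monocytes. All 6 co-culture libraries were above those alone, by 1.76-fold with TRMs (log2 difference 0.82 ± 0.20 SE, adjusted p = 0.0137) and 1.90-fold with monocytes (log2 difference 0.93 ± 0.20 SE, adjusted p = 0.00461). The call with TRMs was lost without alone-group replicate 1 (adjusted p = 0.0568), TRM replicate 2 (0.0686) or TRM replicate 3 (0.0543).

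The other 5 CCAN members that rose with monocytes did not pass with TRMs. Cenpn encodes the subunit that reads the CENP-A nucleosome directly. Its 9 values were 6.85, 4.14 and 4.97 in the libraries alone, 8.48, 10.5 and 8.29 in those with TRMs and 13.2, 14.4 and 11.7 in those with monocytes, with no overlap between any of the 3 groups. The monocyte difference passed (log2 difference 1.32 ± 0.26 SE, adjusted p = 0.00253), and with TRMs the log2 difference of 0.80 had an adjusted p of 0.0521. That TRM value passed in DESeq2 (adjusted p = 0.0446), without alone-group replicate 1 (0.0395) and without monocyte replicate 3 (0.0448). Cenph and Cenpi encode partners in the same CCAN subcomplex. Cenph was at 2.74, 3.60 and 3.20 in the libraries alone, 2.97, 3.09 and 4.66 in those with TRMs and 6.84, 6.47 and 9.57 in those with monocytes, so the TRM libraries overlapped those alone and the monocyte libraries lay above both (log2 difference 1.25 ± 0.34 SE, adjusted p = 0.0148). Cenpi was at 5.24, 14.7 and 6.14 in the libraries alone, 12.98, 11.8 and 16.4 in those with TRMs and 14.7, 18.9 and 21.35 in those with monocytes. Alone-group replicate 2 reached the level of the lowest monocyte library for Cenpi, whose monocyte difference was 1.21 (adjusted p = 0.0171). Without that replicate the log2 difference of Cenpi with TRMs was 1.26 and passed (adjusted p = 0.00585).

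Cenpl, the partner of CENP-N, had 6.18, 17.05 and 9.39 in the libraries alone, 13.9, 12.8 and 12.6 in the TRM co-cultures and 24.5, 20.8 and 21.8 in the monocyte co-cultures. The monocyte libraries were the highest (log2 difference 1.16 ± 0.30 SE, adjusted p = 0.0115), and alone-group replicate 2 lay above all TRM libraries. Without that replicate the TRM difference of Cenpl was 0.78 (adjusted p = 0.0453). Cenpu, a CCAN subunit that takes part in recruiting PLK1, had 2.61, 4.01 and 2.99 in the libraries alone, 4.04, 4.39 and 2.75 in those with TRMs and 6.57, 6.18 and 6.84 in those with monocytes. Monocyte libraries lay above all others (log2 difference 1.05 ± 0.34 SE, adjusted p = 0.0346). Several of these monocyte calls ended when a library was left out. Cenph was at an adjusted p of 0.0552 and Cenpl at 0.0518 without alone-group replicate 1. Cenpi was at 0.0798, 0.0753 and 0.0510 without alone-group replicate 1, alone-group replicate 3 or monocyte replicate 2. For Cenpu the call was lost without alone-group replicate 1 or 3 (0.117 and 0.101), without TRM replicate 2 (0.0508) and without any of the 3 monocyte replicates (0.0697, 0.0699 and 0.0617), and in a fit of the 2 groups only (0.0524). Cenpu also shares 1069 exon bases with Primpol, a gene of the opposite strand that passed neither test. Primpol had a mean of 17.8 alone, beside 3.20 for Cenpu.

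The 6 CCAN members that passed neither test were Cenpc1, Cenpk, Cenpo, Cenpp, Cenpq and Cenpw. Cenpc1, which encodes the scaffold CENP-C, was 23.45, 28.1 and 24.1 in the libraries alone, 34.9, 25.5 and 34.6 in those with TRMs and 40.4, 37.5 and 22.1 in those with monocytes. Without monocyte replicate 3, its lowest library, Cenpc1 passed with monocytes (log2 difference 0.63, adjusted p = 0.0282). Cenpo was level across the groups, at 14.7 ± 0.4225 alone, 14.3 ± 2.56 with TRMs and 14.2 ± 2.43 with monocytes (SD, n = 3), with a 95% interval of -0.54 to 0.40 for the log2 difference with monocytes. Cenpo shares 1632 exon bases with opposite-strand genes. The remaining members had log2 differences with monocytes of 0.92 for Cenpk, 0.96 for Cenpp, 0.50 for Cenpq and 0.82 for Cenpw. Their 95% intervals were 0.10 to 1.75, -0.24 to 2.15, -0.10 to 1.10 and -0.18 to 1.81, wide enough to hold a 2-fold rise. Cenpp was the least sequenced member, with 409 reads over all libraries. It shares 322 exon bases with opposite-strand genes, among them Ippk, which had a mean of 55.3 alone beside 1.30 for Cenpp.

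All 4 genes of the NDC80 complex, the microtubule-binding rod of the outer kinetochore, rose in both co-cultures. In each of the 4, all 9 libraries kept the order alone, TRM, monocyte with no overlap. Ndc80 encodes the subunit that touches the microtubule, and its level was 4.84, 9.31 and 5.51 in the libraries alone, 12.8, 13.6 and 16.4 in those with TRMs and 20.9, 27.45 and 23.2 in those with monocytes. It was 2.255-fold higher with TRMs (log2 difference 1.17 ± 0.26 SE, adjusted p = 0.00735) and 3.77-fold higher with monocytes (log2 difference 1.92 ± 0.26 SE, adjusted p = 0.000211). Nuf2, its coiled-coil partner, was at 2.83, 7.99 and 6.20 in the libraries alone, 16.7, 15.3 and 15.7 in the TRM co-cultures and 29.4, 30.8 and 21.1 in the monocyte co-cultures. Nuf2 had the largest difference of the complex, 3.05-fold with TRMs (log2 difference 1.61 ± 0.33 SE, adjusted p = 0.003975) and 5.14-fold with monocytes (log2 difference 2.36 ± 0.33 SE, adjusted p = 0.000217).

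Spc24 and Spc25 form the inner end of the rod, which docks on MIS12 and CENP-T. Spc24 was at 2.70, 4.415 and 3.62 in the libraries alone, 7.60, 9.75 and 6.37 in those with TRMs and 14.9, 15.3 and 23.5 in those with monocytes. Monocyte replicate 3 was the highest Spc24 library, and the rise was 2.22-fold with TRMs (log2 difference 1.15 ± 0.30 SE, adjusted p = 0.0169) and 4.99-fold with monocytes (log2 difference 2.32 ± 0.30 SE, adjusted p = 0.000135). Spc25 had 7.07, 11.9 and 7.26 in the libraries alone, 17.55, 13.6 and 18.3 in those with TRMs and 28.6, 28.6 and 28.3 in those with monocytes. The 3 monocyte libraries of Spc25 were nearly equal (3.36-fold the level alone, log2 difference 1.75 ± 0.24 SE, adjusted p = 0.000183), and with TRMs the log2 difference was 0.94 (adjusted p = 0.01335). With TRMs the Spc24 call ended without alone-group replicate 1 (0.0705), without TRM replicate 2 (0.0970) and in limma-voom (0.0548). The Spc25 call ended without alone-group replicate 1 (0.0608), alone-group replicate 3 (0.0649) or TRM replicate 3 (0.0568).

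**Figure D2:**
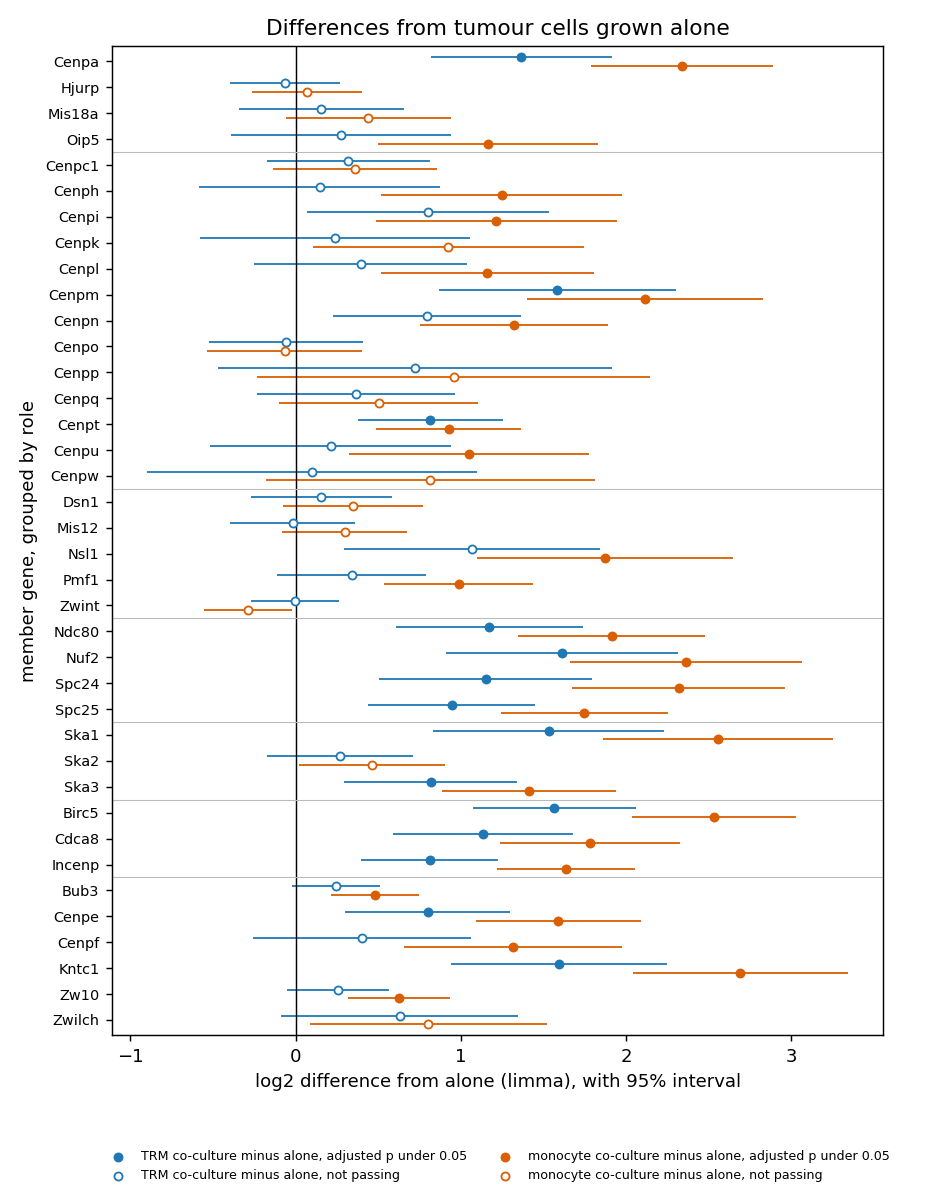
Points are limma log2 differences from tumour cells alone with 95% intervals, for TRM (blue) and monocyte (orange) co-cultures, by member and role. Filled points passed the adjusted threshold, 14 of 38 in blue and 25 of 38 in orange, and all filled points lie to the right of 0.

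The MIS12 complex and ZWINT lie between the inner layer and the NDC80 rod. Of these 5 genes 2 rose with monocytes, and with TRMs 0 passed in limma, 1 was at an unadjusted p under 0.05 and 1, Nsl1, passed in edgeR and DESeq2. Nsl1 encodes a MIS12 subunit and had 4.48, 2.785 and 3.17 in the libraries alone, 4.66, 7.63 and 10.2 in those with TRMs and 17.9, 11.9 and 9.19 in those with monocytes. It rose 3.67-fold with monocytes (log2 difference 1.88 ± 0.36 SE, adjusted p = 0.00196), and with TRMs its log2 difference was 1.06 (adjusted p = 0.0558). That TRM value passed in edgeR (0.0472), in DESeq2 (0.0256), and without TRM replicate 1 (0.0238), monocyte replicate 1 (0.0452) or monocyte replicate 3 (0.0397). Pmf1, another subunit, had 19.6, 28.01 and 17.7 in the libraries alone, 28.5, 30.3 and 22.9 in the TRM co-cultures and 47.3, 35.2 and 45.7 in the monocyte co-cultures. Its monocyte libraries lay above all others (log2 difference 0.99 ± 0.21 SE, adjusted p = 0.00372), and its TRM libraries overlapped those alone (0.34, adjusted p = 0.298).

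Mis12 and Dsn1, the remaining subunits, were not called. Their log2 differences were -0.02 and 0.16 with TRMs, and 0.30 and 0.35 with monocytes. Zwint encodes a protein that joins the outer kinetochore to the RZZ complex. Its values were 178, 207 and 176 in the libraries alone, 186, 190.0 and 182 in those with TRMs and 142, 155 and 163 in those with monocytes. Zwint was the only member whose 3 monocyte libraries all lay below the 3 alone, with a log2 difference of -0.29 that did not pass (adjusted p = 0.104). Its interval was -0.55 to -0.02.

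In the SKA complex, which tracks microtubule ends, 2 of 3 genes rose in each co-culture. Ska1 was at 2.16, 3.69 and 1.85 in the libraries alone, 5.60, 8.28 and 7.675 in those with TRMs and 16.7, 14.6 and 12.35 in those with monocytes. All 9 libraries were ordered alone, TRM, monocyte. Ska1 was 2.89-fold higher with TRMs (log2 difference 1.53 ± 0.32 SE, adjusted p = 0.00540) and 5.89-fold higher with monocytes (log2 difference 2.56 ± 0.32 SE, adjusted p = 0.000119). Ska3 was at 11.00, 7.13 and 11.2 in the libraries alone, 20.6, 17.3 and 13.5 in those with TRMs and 27.6, 21.4 and 28.1 in those with monocytes, also with no overlap. The Ska3 rise was 1.76-fold with TRMs (log2 difference 0.82 ± 0.24 SE, adjusted p = 0.03265) and 2.665-fold with monocytes (log2 difference 1.41 ± 0.24 SE, adjusted p = 0.000994). The TRM call of Ska3 was lost in limma-voom (0.0575), under scaling by library totals (0.0541), and without alone-group replicate 2 (0.106), TRM replicate 1 (0.117) or TRM replicate 2 (0.108). Ska2 passed neither test (log2 difference 0.27 with TRMs and 0.46 with monocytes). Without monocyte replicate 1 it passed with monocytes (0.62, adjusted p = 0.0485).

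All 3 listed genes of the chromosomal passenger complex rose in both co-cultures, and in each the 3 groups did not overlap. Birc5 encodes survivin, the subunit that brings the complex to the centromere. Its level was 6.89, 13.7 and 8.19 in the libraries alone, 26.9, 29.4 and 25.4 in the TRM co-cultures and 51.2, 52.2 and 56.1 in the monocyte co-cultures. Birc5 was 2.96-fold higher with TRMs (log2 difference 1.57 ± 0.23 SE, adjusted p = 0.000486) and 5.785-fold higher with monocytes (log2 difference 2.53 ± 0.23 SE, adjusted p = 1.47e-05), the smallest p of the 38 members in each comparison. Cdca8 encodes borealin and had 9.79, 20.4 and 12.2 in the libraries alone, 30.7, 32.4 and 25.9 in those with TRMs and 58.1, 43.7 and 39.1 in those with monocytes. It rose 2.19-fold with TRMs (log2 difference 1.13 ± 0.25 SE, adjusted p = 0.00725) and 3.44-fold with monocytes (log2 difference 1.78 ± 0.25 SE, adjusted p = 0.000262). Cdca8 shares 232 exon bases with a gene of the opposite strand that passed neither test.

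Incenp encodes the scaffold that activates Aurora B. Its values were 43.2, 37.2 and 33.2 in the libraries alone, 59.8, 76.4 and 63.01 in those with TRMs and 157, 111 and 91.7 in those with monocytes. The monocyte libraries were spread widely, and the lowest of them still lay above the highest TRM library. Incenp rose 1.75-fold with TRMs (log2 difference 0.81 ± 0.19 SE, adjusted p = 0.0105) and 3.11-fold with monocytes (log2 difference 1.64 ± 0.19 SE, adjusted p = 6.99e-05). Its TRM call was lost without alone-group replicate 3 (0.0543) or TRM replicate 2 (0.0632). Aurkb, the kinase of this complex, is not among the 38 members and is given with the further kinetochore genes.

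**Figure D3:**
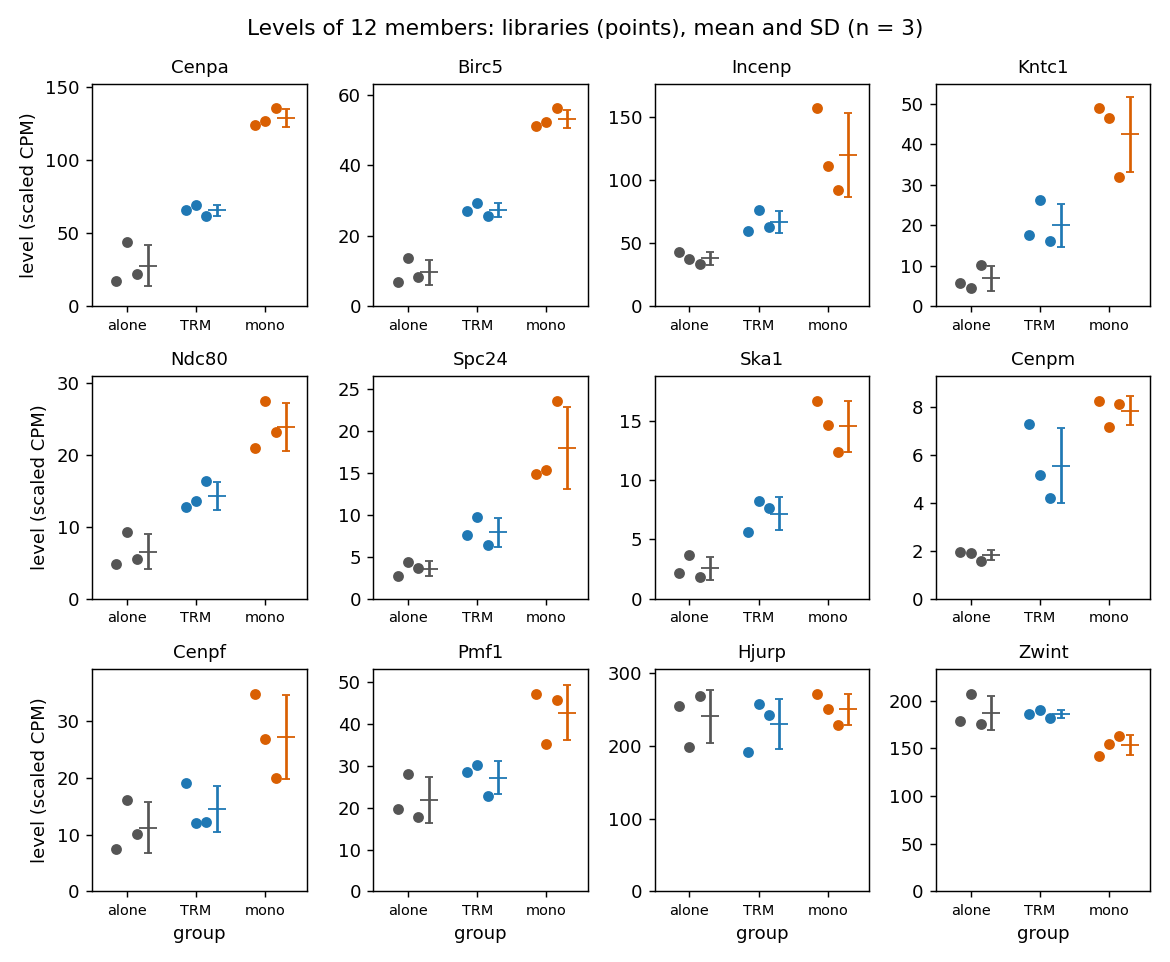
Levels in scaled CPM of 12 members in each library (points), with the group mean and SD to the right (n = 3). In Cenpa, Birc5, Incenp, Kntc1, Ndc80, Spc24 and Ska1 the 3 groups do not overlap, while Hjurp overlaps throughout and Zwint is lowest with monocytes.

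Among genes of the corona, the RZZ complex and the checkpoint, 2 of 6 rose with TRMs and 5 with monocytes. Kntc1 encodes ROD, the large RZZ subunit. It was at 5.78, 4.51 and 10.3 in the libraries alone, 17.6, 26.1 and 16.1 in the TRM co-cultures and 48.8, 46.5 and 31.8 in the monocyte co-cultures. Kntc1 had the highest fold of all 38 members with monocytes, 6.47-fold (log2 difference 2.69 ± 0.30 SE, adjusted p = 5.34e-05), and was 3.02-fold higher with TRMs (log2 difference 1.60 ± 0.30 SE, adjusted p = 0.00269). Cenpe encodes a kinesin that moves chromosomes along microtubules, at 15.2, 27.8 and 16.15 in the libraries alone, 37.6, 27.1 and 35.3 in those with TRMs and 67.2, 55.7 and 49.8 in those with monocytes. Alone-group replicate 2 exceeded the lowest TRM library for Cenpe, and all monocyte libraries were higher still (log2 difference 1.59 ± 0.23 SE, adjusted p = 0.000323). The TRM difference of Cenpe was 0.80 (adjusted p = 0.0296). It did not pass under scaling by library totals (0.0508) or without alone-group replicate 1 (0.121), alone-group replicate 3 (0.121), TRM replicate 1 (0.0941) or TRM replicate 3 (0.0923).

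Cenpf encodes a large corona protein that accumulates in G2. It had 7.43, 16.1 and 10.2 in the libraries alone, 19.2, 11.99 and 12.2 in those with TRMs and 34.8, 26.9 and 20.05 in those with monocytes, with TRM libraries that overlapped those alone (0.40, adjusted p = 0.408) and monocyte libraries that lay above both (log2 difference 1.31 ± 0.31 SE, adjusted p = 0.00644). Zw10, another RZZ subunit, had 41.8, 52.5 and 45.6 in the libraries alone, 54.9, 57.7 and 53.85 in those with TRMs and 78.45, 68.8 and 68.1 in those with monocytes. It rose 1.54-fold with monocytes (log2 difference 0.63 ± 0.14 SE, adjusted p = 0.00578), and the TRM difference of 0.26 did not pass (adjusted p = 0.243) although its TRM libraries all lay above those alone. Bub3, a checkpoint protein that binds phosphorylated KNL1, was at 106, 111 and 97.4 in the libraries alone, 133, 123 and 116 in those with TRMs and 139, 146 and 153 in those with monocytes. Its groups did not overlap either, and its rise with monocytes was small, 1.39-fold (log2 difference 0.48 ± 0.12 SE, adjusted p = 0.0117). That call was lost without alone-group replicate 3 (0.0634), and the TRM difference was 0.24 (adjusted p = 0.204). Zwilch, the third RZZ subunit, passed neither test (log2 difference 0.63 with TRMs and 0.80 with monocytes). Zwilch passed with monocytes without alone-group replicate 1 (1.10, adjusted p = 0.0419).

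The co-cultures were then compared with each other. Group means rose in the order alone, TRM, monocyte for 34 of 38 members, and the monocyte mean was the highest for 36. All 3 monocyte libraries lay above all 3 TRM libraries for 22 members, where 8.62% of all genes did so. TRM libraries lay above those alone for 18 members (20.8% of all genes), and monocyte libraries lay above those alone for 26 (21.3%). A full order of alone, TRM and monocyte with no overlap held for 14 members, beside 372 of the tested genes (3.02%). No member passed the adjusted threshold between the co-cultures in limma or in edgeR, where 0.398% of all genes were called in limma. At an unadjusted p under 0.05, 21 of 38 differed, 20 of them lower with TRMs, where 5.44% of all genes were lower. The median log2 difference of the members, TRM minus monocyte, was -0.65, beside -0.00 over all genes.

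The largest TRM minus monocyte difference was that of Spc24, -1.17 (95% interval -1.81 to -0.52, adjusted p = 0.114). The smallest adjusted p values belonged to Incenp (log2 difference -0.82 ± 0.19 SE, adjusted p = 0.0839) and Birc5 (log2 difference -0.97 ± 0.23 SE, adjusted p = 0.0866). Cenpa was at -0.97 (adjusted p = 0.124), Kntc1 at -1.10 (0.1425) and Ska1 at -1.03 (0.206). DESeq2 called 5 members, Cenpa (0.0144), Spc24 (0.0122), Incenp (0.00653), Birc5 (0.00523) and Kntc1 (0.0244), all lower with TRMs. Cenpa and Birc5 also passed without alone-group replicate 2 (0.0144 and 0.0289) and in a fit of the 2 co-cultures only (0.0176 and 0.0357). Birc5 passed in limma-voom (0.0276) and Incenp without monocyte replicate 3 (0.0305). Members with a positive difference were Zwint (0.28, interval 0.02 to 0.55) and Cenpo (0.01). Cenpt stood at -0.11 and Cenpm at -0.53, both with intervals that include 0.

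**Figure D4:**
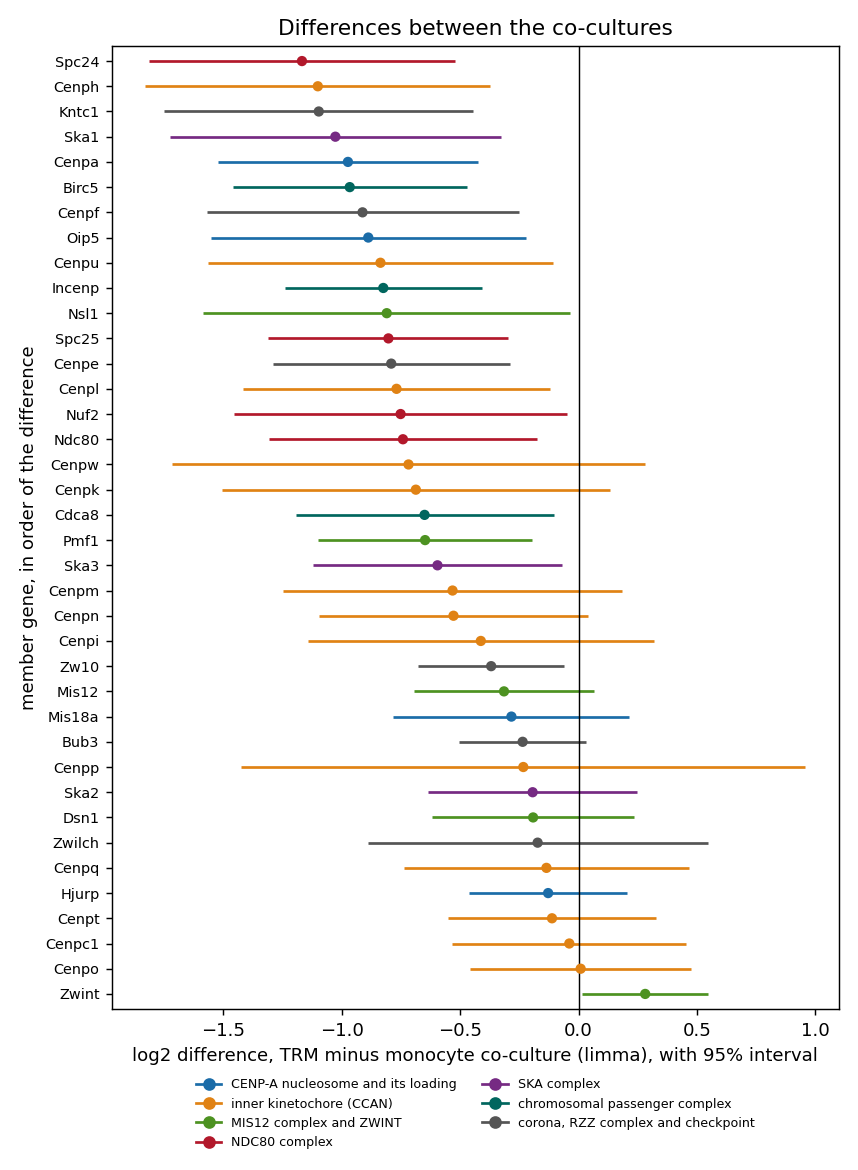
Log2 differences, TRM minus monocyte co-culture, with 95% limma intervals for 38 members in order of size, coloured by role. All points but Zwint and Cenpo lie below 0, from -1.17 for Spc24, and no member passed the adjusted threshold.

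Per kb of transcript, the members alone ranged from 0.713 scaled CPM for Nsl1 to 70.0 for Zwint. Zwint, Hjurp (49.2) and Bub3 (47.2) were the highest alone, followed by Pmf1 (21.6) and Cenpa (18.8). With monocytes the highest was Cenpa, at 87.8 per kb, followed by Bub3 (65.7), Zwint (57.3) and Birc5 (56.1), with Hjurp at 51.2. Hjurp, Zwint and Bub3 together made up 50.1% to 56.8% of the members' summed level alone, 42.5% to 44.7% with TRMs and 32.1% to 35.2% with monocytes. The summed level of all 38 members was 947.3 to 1032 alone, 1200 to 1273 with TRMs and 1549 to 1720 with monocytes. Leaving out those 3, a choice not set in advance, gave 409 to 515.3 alone, 686.1 to 703.3 with TRMs and 1004 to 1168 with monocytes. The 3 had small log2 differences with monocytes (Hjurp 0.07, Zwint -0.29, Bub3 0.48), so their removal raises the relative difference of the rest. Neither sum overlapped between groups.

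**Figure D5:**
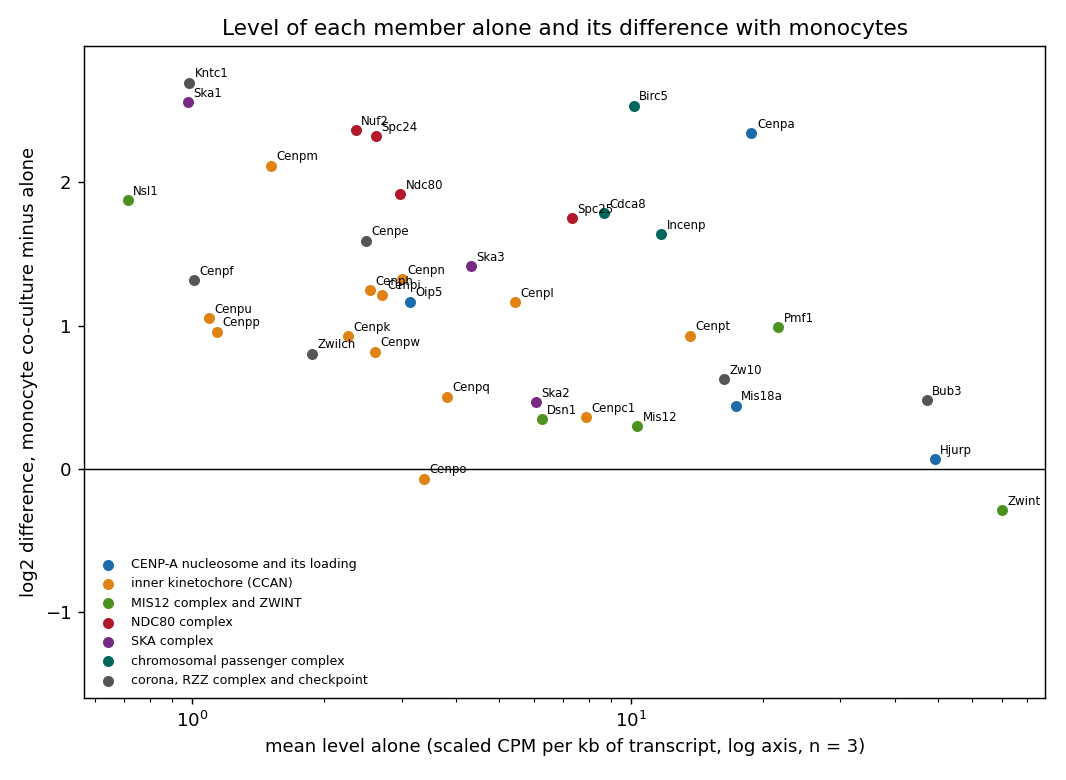
Each point is a member, at its mean level alone in scaled CPM per kb of transcript (log axis, n = 3) and its log2 difference with monocytes, coloured by role. The 3 members with the highest levels, Zwint, Hjurp and Bub3, lie below 0.5, and Kntc1 and Ska1, near 1 scaled CPM per kb, lie highest. Cenpa, at 18.8 per kb, lies at 2.34, while Cenpp and Cenpu, at 1.14 and 1.09 per kb, lie at 0.96 and 1.05. The level alone enters both axes, so a downward slope is partly built in and was not tested.

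Of 32 further kinetochore and centromere genes outside the 38, 15 rose with TRMs, 21 with monocytes and 0 fell, with median log2 differences of 0.63 and 1.19. Aurkb, the Aurora B kinase of the passenger complex, rose from 10.3 ± 3.04 alone to 25.8 ± 3.03 with TRMs and 51.2 ± 9.70 with monocytes (SD, n = 3). Bub1b, the checkpoint protein BUBR1, was 1.97-fold higher with TRMs (log2 difference 0.98 ± 0.17 SE, adjusted p = 0.00141) and 2.99-fold higher with monocytes (log2 difference 1.58 ± 0.17 SE, adjusted p = 3.62e-05). Nek2, a mitotic kinase, and Kif2c, a microtubule depolymerase at centromeres, rose 4.60-fold and 4.66-fold with monocytes.

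Of 22 other G2/M genes, 20 rose with TRMs and 22 with monocytes, with medians of 1.20 and 1.97. Cdk1, the mitotic kinase, was 28.04, 30.2 and 23.45 in the libraries alone, 61.5, 68.5 and 67.9 in those with TRMs and 97.75, 95.9 and 114 in those with monocytes. All 22 stood lower with TRMs than with monocytes (median log2 difference -0.87). At an unadjusted p under 0.05, 21 were lower, where 5.44% of all genes were. DESeq2 called Cdk1 (adjusted p = 0.00648), Ube2c (0.0057), Kif20a (0.00406) and others of the list lower with TRMs. In limma, where 0.398% of all genes were called, 3 passed. They were Cdc20, Kif11 and Aurka, all lower with TRMs (log2 difference -0.94 for Cdc20, -0.9973 for Kif11 and -0.93 for Aurka). These 3 calls were lost without TRM replicate 1, 2 or 3 or monocyte replicate 1 or 2 (adjusted p = 0.063 to 0.172). Those of Cdc20 and Aurka were also lost without alone-group replicate 1 or 3 (0.0529 to 0.0724), and that of Aurka without monocyte replicate 3 (0.0548). Kif11 and Aurka fall outside the naming rule and were chosen after their values were seen. Of 24 genes of G1/S and replication, 12 rose with TRMs and 20 with monocytes, with medians of 0.49 and 1.01. Uhrf1, a maintenance factor of DNA methylation, rose 3.24-fold with TRMs and 5.13-fold with monocytes. Mcm5, a subunit of the replicative helicase, rose 2.15-fold and 3.76-fold.

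Among 22 regulators of G2/M transcription, 7 rose and 1 fell with TRMs, and 9 rose with monocytes. Their median log2 differences were 0.31 and 0.30, and 7 of the 22 were negative in each comparison. The gene that fell, Tfdp2, a partner of E2F factors, was named after its values were seen, and its call was lost on leaving out alone 2 or 3 or TRM 1 or 2 (adjusted p = 0.0563 to 0.108). Foxm1 encodes a transcription factor of G2/M genes and was 17.7, 38.9 and 23.03 in the libraries alone, 57.5, 74.9 and 63.7 in those with TRMs and 169, 121 and 101 in those with monocytes. Its 3 groups did not overlap (log2 difference 1.37 ± 0.26 SE, adjusted p = 0.00261 with TRMs, log2 difference 2.34 ± 0.26 SE, adjusted p = 4.53e-05 with monocytes). Mybl2, which encodes B-MYB, rose 2.46-fold with TRMs and 5.23-fold with monocytes. Between the co-cultures, DESeq2 called Foxm1 (adjusted p = 0.0131) and Mybl2 (0.0147) lower with TRMs, and limma called neither. E2f1, an activator of G1/S genes, rose 2.38-fold and 3.04-fold. E2f8 rose 2.69-fold with TRMs and 4.99-fold with monocytes. Rbl2 encodes p130, the repressive pocket protein of DREAM, and passed neither test (log2 difference -0.28 with TRMs and -0.42 with monocytes). Other E2F and pocket protein genes on the list were named after their values were seen. E2f2 and E2f4 rose in both co-cultures, E2f7 and Rbl1 rose with monocytes, and E2f3 and Rb1 passed neither test. The calls of E2f4 and Rbl1 were lost in several alternatives (adjusted p = 0.0552 to 0.134). Lin9, Lin37, Lin52, Lin54 and Rbbp4, listed for DREAM, and the NF-Y genes Nfya, Nfyb and Nfyc passed neither test. They too were named after their values were seen. Nfyc passed with monocytes without monocyte replicate 3 (0.0163). Cdkn1a, the p21 inhibitor of cyclin-dependent kinases, rose with TRMs, from 64.3, 114 and 69.7 alone to 148, 129 and 106 (log2 difference 0.66 ± 0.20 SE, adjusted p = 0.0348). That call was lost on leaving out alone 1 or 3 or TRM 1 or 2 (adjusted p = 0.111 to 0.15), in edgeR (0.0508) and with scaling by library totals (0.061). With monocytes Cdkn1a was at 77.00, 87.8 and 78.9 (log2 difference 0.02 ± 0.20 SE, adjusted p = 0.949), and the difference between the co-cultures did not pass (log2 difference 0.64 ± 0.20 SE, adjusted p = 0.201).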

How the data were processed

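RNA of sorted GFP-positive cells was sequenced in 9 libraries (SMART-Seq v4, not stated to mark strand), with groups read from the labels. Alignment software and build, per the submitters' processing notes, were STAR 2.5 and mm10, and edgeR is listed too. How reads were counted, and with which annotation, is not stated in the sources used here. The values the authors deposited are a normalised signal: whole reads plus 0.5, divided by a scaled library size, on the CPM scale. Whole reads came back from 111051 of 111051 values (100.0%) at a tolerance of 1e-06. The authors' deposited comparison tables hold log2 fold changes and log2 mean levels, a likelihood ratio score, and p-values, per the file headers.

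Log2 values were tested with limma 3.58.1 (R 4.3.3; eBayes with a trend; group means over 9 libraries; 6 residual degrees of freedom; two-sided) on 12326 genes after filterByExpr of edgeR 4.0.16 (minimum count 10, minimum total 15) removed 13. Adjusted p-values are Benjamini-Hochberg over all genes tested. Alternatives used edgeR's quasi-likelihood test and DESeq2 1.42.0 on recovered reads, limma-voom, other scalings, filters and fits, and each library left out. The procedure was tested on simulated data. Replicate correlations of log2 values across genes were 0.908 to 0.974, and no library was a copy of another. Added reads make folds of low genes too small. Levels per kb use GENCODE M21 transcript lengths (GRCm38). Exons of 12 members overlap a gene on the opposite strand.

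The members and lists were chosen with earlier results of these data known. The naming rule accounts for all 38 members. It gives, per role, library values of the member with the smallest p in each comparison and of members called in a single co-culture. Library values of 9 members outside that rule (Hjurp, Cenpc1, Cenpt, Zwint, Ndc80, Spc25, Ska3, Cdca8 and Cenpe) were added after their values were seen. From other lists it names up to 4 genes by smallest p, with Foxm1, Mybl2, E2f1, Rbl2 and Cdkn1a. Of the marker lists set for other cells, 4 of 9 monocyte genes, 3 of 7 fibroblast genes and 1 of 6 lymphocyte genes were analysed. Their summed levels were 44.65 to 55.11 alone, 38.11 to 46.86 with TRMs and 30.87 to 51.45 with monocytes for the monocyte list. For the fibroblast list they were 5.049 to 7.977, 6.983 to 11.23 and 3.387 to 9.27. Ms4a1, the analysed lymphocyte gene, was 1.896 or lower in every library.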

Additional observations from a re-analysis of the deposited data

How the results depend on the processing

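Over 18 alternatives per comparison, the number of members called ran from 10 to 16 with TRMs and from 22 to 25 with monocytes, always higher than alone. No call of a member reversed, and 26 uncalled values changed sign without a call. Cenpa, Cenpm, Ndc80, Nuf2, Ska1, Birc5, Cdca8 and Kntc1 passed with TRMs in every alternative run. Without a library the count of members was 10 to 16 with TRMs, 22 to 25 with monocytes and 0 to 2 between the co-cultures. Between the co-cultures DESeq2 called 5 members, limma-voom 1 and a fit of the 2 groups only 2. Over all genes, leaving out a library gave 1217 to 2594 calls with TRMs (2262 with all 9), 2240 to 3530 with monocytes (3366) and 0 to 134 between the co-cultures (49). Between the co-cultures, all-gene calls were 329 in DESeq2, 86 in limma-voom and 75 on log2(value + 1). Scaling by library totals shifted the median log2 difference of all genes to -0.09 with TRMs and -0.07 with monocytes. It turned the split of all genes from 1257 higher and 1005 lower to 1003 and 1302 with TRMs, and from 1806 and 1560 to 1603 and 1758 with monocytes. The members then gave 12 and 25 calls. The cause of these changes was not tested.

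The labels share replicate numbers across groups. Correlations of same-numbered deviations were 0.429, 0.0845 and 0.134 between alone and TRM, 0.148, -0.0246 and 0.0799 between alone and monocyte, and 0.173, 0.0389 and 0.209 between the co-cultures. Not every pair exceeded 0.1, alone-group replicate 2 correlated best with TRM replicate 3 (0.265), and the labels name no shared batch or day, so the samples were not treated as paired. All 3 pairs of replicate 1 did exceed it. With the replicate block, members called were 14, 25 and 0, and all genes 2392, 3511 and 79. Depth limits Cenpp most, at 409 reads over 9 libraries.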
